A study of Drosophila melanogaster with 6 samples.

Results

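The odorant binding protein (Obp) genes of Drosophila melanogaster were examined in RNA-Seq libraries of larval salivary glands (SG) and of brains plus imaginal discs (B-D). The members were every gene of the count table whose symbol starts with Obp and a digit, which gave 51 of 17493 genes. One more gene of the family, lush, is named outside this pattern and is described apart. All 6 libraries came from feeding larvae of the third instar of the strain y1 w67c23, raised at 25 °C from egg collections of 6 hours and dissected 4 days after egg lay, with 3 SG and 3 B-D libraries. SG and B-D were dissected from the same animals. The larvae carried no other allele or treatment in the labels. SG is labelled as endoreplicating, meaning that its cells copy their genome without dividing, whereas B-D is labelled mitotic, and the study compared them to learn how gene expression differs between these cell cycles. Both samples are whole dissected organs. B-D mixes neurons, glia and several kinds of disc, and the SG libraries held many reads of fat body markers beside those of the gland. Fewer cells of a type and less RNA per cell therefore cannot be told apart in these data.

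Odorant binding proteins are small, soluble, secreted proteins whose helices are held together by cysteine bridges around a hydrophobic pocket. In olfactory and taste sensilla, support cells secrete them into the lymph that bathes the receptor neurons, where they bind odorants, pheromones and other hydrophobic compounds. Many members are also made outside chemosensory organs, such as in fat body, glia or the male reproductive tract. Neither larval salivary glands nor the dissected brains and discs are organs of smell. Adult antennae develop from one of the imaginal discs, but after the stage sampled here.

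The libraries held between 45023997 and 56583711 counts. Levels are CPM, the count of a gene relative to all counts of its library, after TMM scaling (trimmed mean of M-values), with factors of 0.664 to 0.6997 in SG and 1.46 to 1.47 in B-D. A floor of 3 counts in a library was worth 0.0809 to 0.0968 CPM in SG and 0.0364 to 0.0452 CPM in B-D. Levels of different genes were compared only per kilobase (kb) of exon. Genes of other tissues were present in both dissections. In the SG libraries 8 fat body markers summed to 280244, 227723 and 188034 CPM, and 14 salivary gland markers to 17624, 34051 and 90589 CPM. Over all genes tested, 34.5% were called higher in SG and 35.3% lower. Of 14 salivary gland markers, 8 were higher in SG and none lower, and of 8 fat body markers all 8 were higher in SG. The gland markers not called (Sgs1, Sgs4, Sgs5, Sgs7, Sgs8 and Eig71Ee) had log2 fold changes of 6.24 to 7.22, with edgeR adjusted p of 0.0520 to 0.112. Their SG libraries were uneven, the highest being 58.1 to 46773 times the lowest. All 8 neuronal and all 8 disc patterning markers were lower in SG, as were all 5 ring gland markers found and 7 of 8 markers each of glia, hemocytes and muscle, with the eighth higher in SG in each of those 3 lists. Of trachea markers 4 of 5 tested were lower in SG, of epidermis and cuticle markers 2 of 6, and of gut markers 1 of 6, and none of these was higher. No marker of the salivary gland, neuron, glia, disc or fat body lists was at 0 in all libraries of either tissue.

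Reads were found for 38 of the 51 Obp genes in SG and for 41 in B-D, and 36 had reads in both tissues. Among all genes measured, 81.5% had at least 1 read in SG and 87.0% in B-D. By library, 27, 30 and 30 members had reads in SG and 35, 39 and 35 in B-D. Most of these were very few reads. Reads in every library of a tissue were seen for 18 members in SG and 29 in B-D, and at least 10 counts in every library for 8 members in SG and 13 in B-D. At the other end, 6 members had 100 or more counts in every SG library and 4 in every B-D library. Expression of the family was therefore concentrated in a handful of genes in both tissues.

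The gene that carried the family's expression differed between the tissues. The summed level of all 51 members was 5958, 3830 and 2807 CPM in the SG libraries and 1910, 1647 and 1739 CPM in the B-D libraries. The SG sums all lay above the B-D sums and varied more, with a mean of 4198 ± 1607 CPM in SG and 1765 ± 134 CPM in B-D (SD, n = 3 each). Without TMM scaling the members took 0.285% ± 0.101 of all counts in SG and 0.258% ± 0.0189 in B-D (SD, n = 3 each), values that differed by less than the spread of the SG libraries. Obp99b made up 87.1% ± 2.63 of the summed Obp level in SG but 2.20% ± 2.68 in B-D, whereas Obp44a made up 1.61% ± 1.38 in SG and 86.2% ± 2.90 in B-D (SD, n = 3 each). Obp99c followed in SG with 9.82% ± 1.25, and Obp99a in B-D with 10.7% ± 0.811. The other 47 members together reached 33.3, 39.2 and 36.1 CPM in SG and 13.5, 15.3 and 9.62 CPM in B-D.

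**Figure D1:**
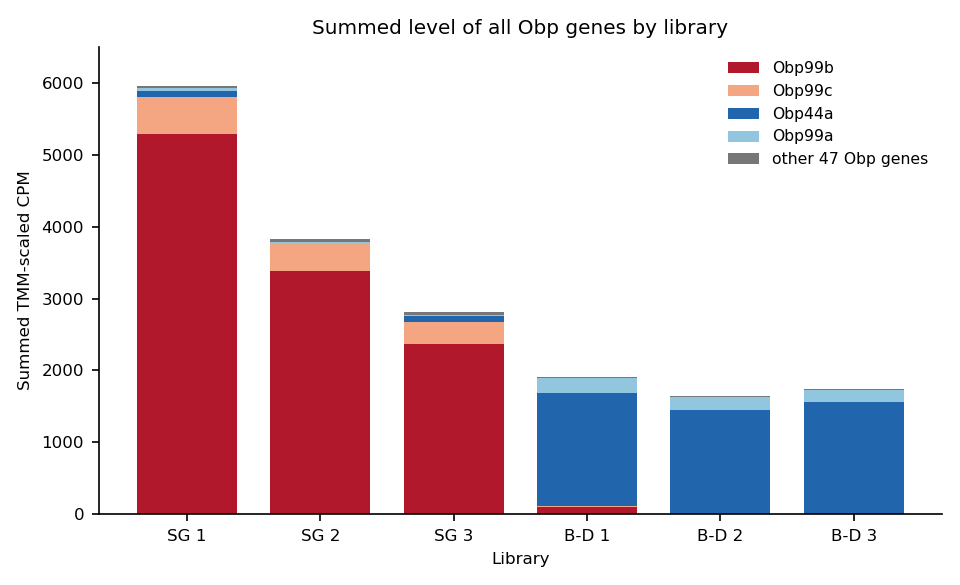
Stacked bars give the summed TMM-scaled CPM of all 51 Obp genes in each library (x axis, 3 SG libraries left of 3 B-D libraries), split into Obp99b, Obp99c, Obp44a, Obp99a and the other 47 genes. Obp99b fills most of each SG bar and Obp44a most of each B-D bar, and the SG bars fall between 2807 and 5958 CPM, above the B-D bars at 1647 to 1910 CPM.

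Among all genes of the table, Obp99b ranked 26 per kb of exon in SG and 602 in B-D, and Obp44a ranked 1379 in SG and 15 in B-D. Within the family the order per kb in SG was Obp99b, Obp99c, Obp44a, Obp99a and Obp83cd, with means of 6197, 596, 57.9, 32.8 and 24.7 CPM per kb. Obp99b and Obp99c did not overlap with any lower-ranked member, while the SG libraries of Obp44a, ranging from 10.05 to 84.6 CPM per kb, overlapped with those of Obp99a and Obp83cd. In B-D the order was Obp44a, Obp99a, Obp99b, Obp56a and Obp99c, with means of 1411, 310, 69.2, 11.6 and 5.33 CPM per kb. Obp44a stood above Obp99a in every B-D library, and Obp99a above all others, but the B-D libraries of Obp99b overlapped with those of Obp56a and Obp99c.

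A test between the tissues was possible for 17 of the 51 members, those that passed the filter on low counts, which 65.0% of all genes passed. The other 34 members had at most 21 counts summed over SG and at most 28 over B-D, with no more than 26 in any library. Of the 17 tested, 5 were higher in SG (Obp99b, Obp99c, Obp83cd, Obp83ef and Obp18a), against a background of 34.5% of all tested genes. Another 6 were lower in SG (Obp44a, Obp99a, Obp28a, Obp83g, Obp57e and Obp47b), against 35.3% of all tested genes, and 6 were neither. Calls needed an adjusted p no higher than 0.05 together with a log2 change of 0.5 or more in either direction, by edgeR's quasi-likelihood test with Benjamini-Hochberg adjustment over all 11369 genes tested. The SG and B-D libraries did not overlap for 12 of the 17, 5 with SG above and 7 with SG below, compared with 81.2% of all genes tested. These shares rest on the members that passed the filter and are read as no property of the family. Their median log2 fold change was -0.43 and that of all tested genes -0.03, with an SD of 3.83 over the members and 2.32 over all genes, and the members ranged from -4.96 to 6.80.

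**Figure D2:**
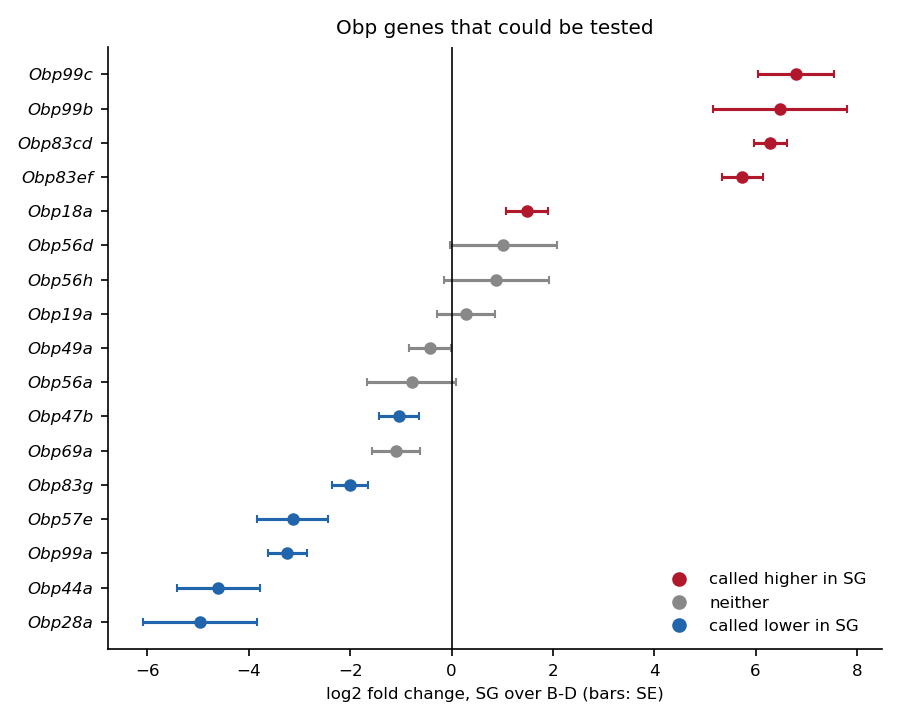
Points give the log2 fold change of SG over B-D (x axis) for each of the 17 Obp genes that could be tested (y axis). Bars give the SE, derived from the fold change and the F statistic of the edgeR test over 3 libraries per tissue. The 5 genes higher in SG range from 1.49 for Obp18a to 6.80 for Obp99c, and the 6 lower in SG from -1.04 for Obp47b to -4.96 for Obp28a.

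The 4 neighbouring genes near the end of chromosome arm 3R, namely Obp99a, Obp99c, Obp99d and Obp99b in that order, lie within 45.2 kb (positions 29671657 to 29716896 of the Release 6 genome) and did not share a direction. Obp99b (FBgn0039685, 29716254 to 29716896, minus strand), known as a fat body gene that differs between the sexes in adult heads, was the most abundant member in SG. It stood at 5295, 3386 and 2361 CPM in SG and at 100, 4.40 and 18.4 CPM in B-D. Every SG library lay far above every B-D library, and the B-D libraries were themselves spread, the highest being 22.8 times the lowest. The log2 fold change was 6.48 ± 1.32 (SE, edgeR adjusted p = 0.00459), a fold of 89.6. Without B-D replicate 1 it was 8.37, and without TMM scaling, by library size alone, 5.38. With the replicate number as a block it was 7.37 (edgeR adjusted p = 0.00581).

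Obp99c (FBgn0039682, 29685736 to 29689311, minus strand) is the neighbour with the same direction. Its level was 506, 382 and 308 CPM in SG and 6.77, 1.28 and 2.66 CPM in B-D. The tissues were again far apart, and both genes took the same order of libraries within each tissue. The log2 fold change of Obp99c was 6.80 ± 0.75 (SE, edgeR adjusted p = 3.69e-04), and 7.69 without B-D replicate 1. Per kb, Obp99b exceeded Obp99c by 11.8, 9.98 and 8.63 times in the SG libraries. Just 3.44% of the exon length of Obp99c lies under another gene on the opposite strand, and Obp99b shares no exon with another gene.

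Both Obp99b and Obp99c took the same order of libraries as the storage protein genes of the fat body. The 8 fat body markers, led by the hexamerin storage proteins Lsp1gamma and Lsp1beta, summed to 280244, 227723 and 188034 CPM in SG and to 4390, 727 and 1673 CPM in B-D. These sums ranked the libraries of each tissue in the order in which Obp99b and Obp99c ranked them. In B-D the summed hemocyte (1858, 1068 and 1286 CPM) and gut markers (109, 8.72 and 23.6 CPM) took that order too, though not in SG. The order in both tissues was that of 4 of the 8 fat body markers, Lsp1alpha, Lsp1beta, Lsp1gamma and Lsp2, which carry most of the sum. The other 4 markers did not take it in SG, where Fbp1 had 23.6, 135 and 642 CPM, Fbp2 1087, 900 and 1579 CPM, Apoltp 1256, 1356 and 974 CPM, and the lipoprotein gene apolpp was nearly level at 23854, 22666 and 23058 CPM. For each 1000 CPM of the fat body sum, Obp99c had 1.81, 1.68 and 1.64 CPM in SG and 1.54, 1.76 and 1.59 CPM in B-D. This ratio to the sum stayed nearly level while both levels were far higher in SG. It rests mostly on the Lsp genes and does not hold for each marker. In B-D apolpp had 609, 320 and 457 CPM, and relative to apolpp Obp99c was higher in every SG library than in any B-D library. For Obp99b the same ratio was 18.9, 14.9 and 12.6 in SG and 22.9, 6.05 and 10.99 in B-D, so it was less even. The part that fat body RNA in the SG or B-D dissections had in these levels was not tested. Salivary gland markers, led in SG by ng3 and Sgs7, summed to 17624, 34051 and 90589 CPM in SG, the opposite order, and to 279, 366 and 891 CPM in B-D. In SG 11 of those 14 markers took this order, among them the glue genes, but ng3 did not, at 12840, 13170 and 11121 CPM.

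**Figure D3:**
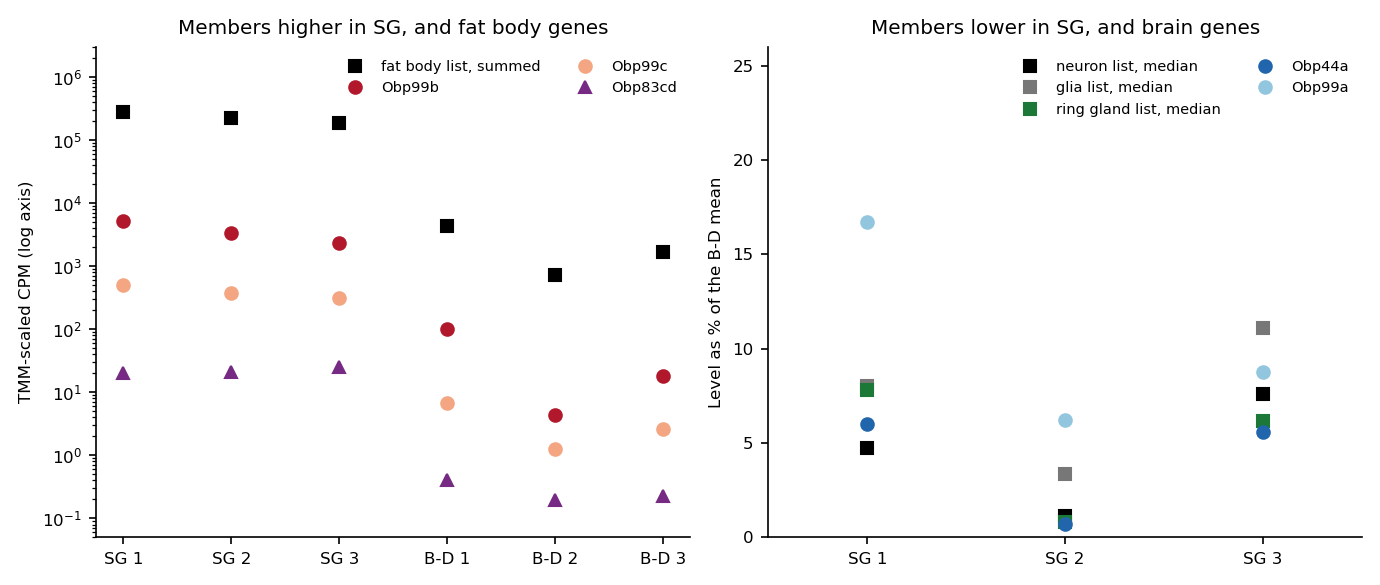
Left, TMM-scaled CPM (log axis) of Obp99b, Obp99c and Obp83cd and the summed CPM of 8 fat body markers in each library; the fat body sum, Obp99b and Obp99c take the same order within each tissue, while Obp83cd is highest in SG 3, where the fat body sum is the lowest of the SG libraries. Right, level in each SG library as a percentage of the B-D mean for Obp44a and Obp99a, beside the medians of the neuron, glia and ring gland lists; each series is lowest in SG 2.

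Obp99a (FBgn0039678, 29671657 to 29672334, plus strand) lies at the other edge of the stretch and was lower in SG. It had 31.7, 11.8 and 16.5 CPM in SG and 206, 189 and 172 CPM in B-D, and no SG library came near the B-D range. The log2 fold change was -3.24 ± 0.39 (SE, edgeR adjusted p = 5.14e-04), or 9.45-fold lower in SG. Obp99d, between Obp99c and Obp99b, had 4, 1 and 3 counts in SG and 8, 11 and 3 in B-D, too few for a test. The stretch therefore held a pair of genes far higher in SG, one far lower and one scarcely read.

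A similar split was seen for 3 adjacent genes of the Obp83 group, within 4.17 kb of 3R at 6108134 to 6112302. Obp83cd and Obp83ef, whose predicted proteins each carry a tandem pair of Obp domains, are convergent genes whose ends overlap by about 10.2% of their exon length. Obp83cd (FBgn0046878, plus strand) had 20.2, 20.9 and 25.4 CPM in SG and 0.412, 0.196 and 0.226 CPM in B-D. The SG libraries agreed closely with each other and all stood far above B-D. The log2 fold change was 6.29 ± 0.33 (SE, edgeR adjusted p = 4.30e-05), or 78.5-fold higher in SG.

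Obp83ef (FBgn0046876, minus strand) had 3.40, 3.13 and 3.74 CPM in SG and 0.0727, 0.0904 and 0.0251 CPM in B-D. Its B-D values rested on 6, 6 and 2 counts, near the floor, and were far below every SG library. The log2 fold change was 5.74 ± 0.41 (SE, edgeR adjusted p = 8.97e-05). Summed over libraries, 352 counts in SG against 14 in B-D gave a ratio of scaled counts of 56.1, with a 95% exact interval of 33.0 to 104 that covers counting error only. Per kb, Obp83cd exceeded Obp83ef by 5.96, 6.68 and 6.81 times in the SG libraries.

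Unlike Obp99b and Obp99c, Obp83cd and Obp83ef did not follow the storage protein genes within SG. Both were highest in SG replicate 3, which had the lowest fat body sum and the highest sum of salivary gland markers. Of single markers, 12 of 14 from the salivary gland list and 2 of 8 from the fat body list (Fbp1 and Fbp2) were also highest in that library. So were all 8 neuronal, 6 of 8 hemocyte, 5 of 8 glial, 5 of 8 disc and 4 of 8 muscle markers. A peak in that library was thus not particular to the salivary gland list. For Obp83ef the peak rested on 129 counts, against 126 and 97 in SG replicates 1 and 2. The highest SG library was 1.26 times the lowest for Obp83cd and 1.20 times for Obp83ef. Among the 14 salivary gland markers this ratio ran from 1.13 for fkh to 46773 for Sgs1. It was 1.18 for ng3 and 1.29 for ng2, but 830 for the glue gene Sgs3. The fat body list held even and uneven markers too, with apolpp at 23854, 22666 and 23058 CPM and Lsp2 at 19512, 14273 and 9386 CPM in SG. In B-D, Obp83cd stood at 1.86%, 0.883% and 1.02% of its SG mean, beside medians of 0.498%, 0.769% and 2.06% for the salivary gland markers and 1.80%, 0.201% and 0.906% for the fat body markers. Whether its B-D reads came from SG or fat body carried along in the dissection was not tested.

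Obp83g (FBgn0046875, minus strand), the third gene of this stretch, went the other way. It had 0.297, 0.194 and 0.174 CPM in SG and 0.970, 1.13 and 0.614 CPM in B-D, with no overlap but low levels in both tissues, from 11, 6 and 6 counts in SG and 80, 75 and 49 in B-D. The log2 fold change was -2.01 ± 0.36 (SE, edgeR adjusted p = 0.00266), or 4.02-fold lower in SG. Outside this stretch, at 5972155 to 5976817 of the same arm, Obp83a and Obp83b, which encode abundant proteins of the adult antenna, had at most 8 counts in any SG library and 12 in any B-D library.

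Obp44a was the leading member of B-D. In the fly brain its protein is known as a fatty acid binding protein of astrocyte-like glia. The gene (FBgn0033268, 2R, 8134170 to 8135315, minus strand) had 91.0, 10.8 and 85.1 CPM in SG and 1583, 1436 and 1536 CPM in B-D. The B-D libraries were nearly equal, the highest being 1.10 times the lowest, whereas SG replicate 2 lay 8.42 times below the highest SG library. The log2 fold change was -4.61 ± 0.82 (SE, edgeR adjusted p = 0.00260), or 24.4-fold lower in SG, and -4.09 without SG replicate 2. Per kb, Obp44a exceeded Obp99a by 4.35, 4.30 and 5.07 times in the B-D libraries. Of its exon length 19.1% lies under Pabp2 on the opposite strand.

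In SG, both abundant B-D members took their lowest level in the library where most markers of the B-D tissues were lowest. Relative to its B-D mean, Obp44a was at 5.99%, 0.712% and 5.60% in the SG libraries, and Obp99a at 16.7%, 6.231% and 8.75%. The median over 8 neuronal markers (led by Syt1 and futsch) was 4.75%, 1.12% and 7.60% of the B-D mean, that over 8 glial markers (led by Gs2 and moody) 8.03%, 3.35% and 11.1%, and that over 5 ring gland markers (led by phm and sad) 7.82%, 0.832% and 6.18%. SG replicate 2 was thus the lowest SG library for both genes and for all 3 medians, and for all 8 neuronal, 7 of 8 glial and all 5 ring gland markers, the exception being moody at 80.2, 91.6 and 67.7 CPM. It was also lowest in the medians of the disc (14.7%, 10.3% and 14.9%), hemocyte (13.8%, 7.94% and 23.2%) and muscle lists (29.8%, 17.5% and 28.1%). By single markers it was lowest for 5 of 8 disc, 7 of 8 hemocyte and 7 of 8 muscle markers. A low in that library was thus not particular to brain or ring gland. The trachea median was lowest there too (28.4%, 23.8% and 25.3%), but only 1 of 6 trachea markers was. The part that any of these tissues in the SG dissections had in the Obp44a and Obp99a reads of SG was not tested.

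**Figure D4:**
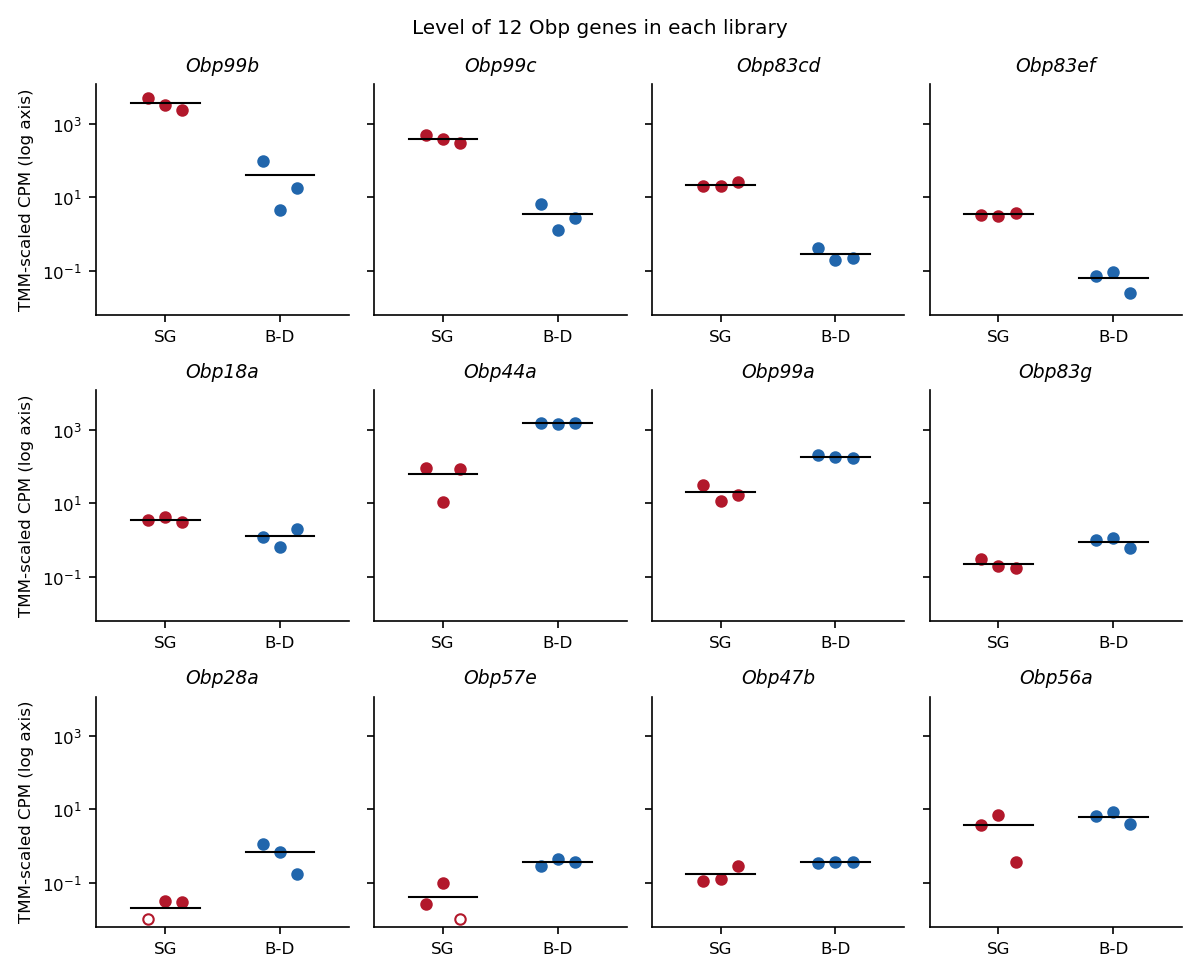
Each panel gives the TMM-scaled CPM (log axis, the same in all panels) of 1 Obp gene in the 3 SG libraries (red, left) and the 3 B-D libraries (blue, right), with a line at the mean. Open circles at the bottom mark libraries with no count, which were Obp28a in SG 1 and Obp57e in SG 3; the 5 genes higher in SG come first, then the 6 lower in SG, and Obp56a, whose libraries overlap, comes last.

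The remaining called genes were expressed at low levels. Obp18a, on the X chromosome (FBgn0030985, 19135081 to 19135868, minus strand), had 3.48, 4.26 and 3.10 CPM in SG and 1.237, 0.663 and 1.96 CPM in B-D. The libraries did not overlap, and the log2 fold change was 1.49 ± 0.41 (SE, edgeR adjusted p = 0.0161), or 2.80-fold higher in SG. The call was lost with library size alone as the scale, at 0.39 (adjusted p = 0.399), and without B-D replicate 1 (adjusted p = 0.0516).

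Obp28a, whose protein is abundant in the adult antenna, was scarcely read in SG. It had 0, 1 and 1 counts in SG and 96, 46 and 14 counts in B-D, where the level was 1.16, 0.693 and 0.176 CPM. All SG libraries were below the floor and all B-D libraries above it. The ratio of scaled counts was 0.0286 (95% exact interval 0.00343 to 0.105), and the test gave a log2 fold change of -4.96 ± 1.13 (SE, edgeR adjusted p = 0.00744). Without SG replicate 1 it was -4.37, and without B-D replicate 1, the library with the most reads, -4.26. The gene lies on 2L at 7496791 to 7497365.

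Obp57e, which acts with Obp57d in the taste of plant fatty acids in adult flies, had 1, 3 and 0 counts in SG and 23, 29 and 30 counts in B-D. The B-D libraries were even, at 0.279, 0.437 and 0.376 CPM, while SG stayed at or below the floor. The ratio of scaled counts was 0.109 (95% exact interval 0.0289 to 0.289), with a log2 fold change of -3.13 ± 0.69 (SE, edgeR adjusted p = 0.00671) that became -4.49 without SG replicate 2. Obp57e lies on 2R with Obp57a, Obp57b, Obp57c and Obp57d, of which only Obp57b had any reads, 3 in all from B-D.

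Obp47b (2R, 11302247 to 11302987) was the weakest call. It had 4, 4 and 10 counts in SG and 28, 25 and 30 in B-D, and the log2 fold change of -1.04 ± 0.39 (SE, edgeR adjusted p = 0.0496) passed the threshold in only 3 of the 11 alternatives tried. With the replicate number as a block the adjusted p was 0.0720. All of its exon length lies under CG7741 on the opposite strand, a gene with a log2 fold change of -0.35 ± 0.09 (SE, adjusted p = 0.0146), and whether the counting used strand is not given in the sources used here. Reads of the overlapping genes may thus have been dropped or shared, and the value is uncertain.

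The 6 tested members that were called in neither direction were Obp56a, Obp56d, Obp56h, Obp49a, Obp69a and Obp19a, 3 with a higher and 3 with a lower estimate in SG. Obp56a was the most abundant of them. It had 3.72, 6.91 and 0.377 CPM in SG and 6.62, 8.40 and 3.95 CPM in B-D, so the ranges overlapped and SG replicate 3 lay 18.3 times below SG replicate 2 (log2 fold change -0.79 ± 0.88, SE, edgeR adjusted p = 0.440, and -1.60, still not called, without SG replicate 2). Its neighbour Obp56d had 0.755, 1.52 and 0.145 CPM in SG and 0.473, 0.678 and 0.0376 CPM in B-D (1.02 ± 1.06 on the log2 scale, SE, edgeR adjusted p = 0.406). SG was above B-D in each of the 3 same-numbered pairs, and with the replicate number as a block Obp56d was called higher in SG, at 1.08 ± 0.33 (SE, edgeR adjusted p = 0.0424). In both tissues both genes were highest in replicate 2 and lowest in replicate 3. The summed epidermis and cuticle markers, led in SG by ple and Ddc, were also highest in replicate 2 of each tissue, at 38.3, 69.2 and 31.6 CPM in SG and 88.5, 259 and 126 CPM in B-D. Of the 8 markers 4 (Lcp1, Lcp2, Lcp4 and Ddc) were highest in replicate 2 of both tissues, while ple was lowest there in B-D (23.9, 23.2 and 31.6 CPM), TwdlE was highest in B-D replicate 1, and Lcp3 was lowest in SG replicate 2. The part of such tissue in the levels of Obp56a and Obp56d was not tested.

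Obp56h, farther along 2R, had 0, 13 and 14 counts in SG and 20, 3 and 11 in B-D and was as uneven (log2 fold change 0.89 ± 1.03, SE, edgeR adjusted p = 0.459). Obp69a had 1, 4 and 4 counts in SG and 17, 12 and 15 in B-D. Its scaled levels did not overlap, at 0.0270, 0.129 and 0.116 CPM in SG and 0.206, 0.181 and 0.188 CPM in B-D, but the difference did not pass the test (log2 fold change -1.10 ± 0.48, SE, edgeR adjusted p = 0.0772). Obp49a, a gene of adult taste organs, had 7, 8 and 18 counts in SG and 28, 31 and 40 in B-D (log2 fold change -0.43 ± 0.42, SE, edgeR adjusted p = 0.377), and Obp19a had 3, 3 and 10 in SG and 7, 9 and 13 in B-D (0.29 ± 0.57, edgeR adjusted p = 0.659). Both overlapped between the tissues.

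Of the 34 untested members, 8 had no read in any library, namely Obp22a, Obp50b, Obp50c, Obp56f, Obp56g, Obp57a, Obp57c and Obp57d. Several of these, such as Obp22a, Obp56f and Obp56g, are known from the male reproductive tract of the adult. A count of 0 allows up to 3 counts in a library, which is the floor given above. For 3 of the 8 the annotation bears on the zero, since Obp50b and Obp50c share the same exons on the same strand, and Obp57d lies wholly within exons of Cpr57A, which also had no count. Reads were seen only in SG for Obp59a, a gene known for a role in sensing humidity (0, 3 and 3 counts), and for Obp50a (1, 0 and 0 counts). Reads were seen only in B-D for Obp51a, Obp56c, Obp56i, Obp57b and Obp85a, none with more than 3 counts in all except Obp56c, with 26, 1 and 1.

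A few other untested members had reads in a single library or tissue above the rest. Obp58c had 1, 0 and 1 counts in SG and 0, 21 and 4 in B-D, Obp47a had 0, 1 and 2 counts in SG and 1, 13 and 0 in B-D, and Obp56b had 0, 0 and 8 counts in SG and 0, 1 and 1 in B-D. Obp50d had 0, 2 and 0 counts in SG and 5, 11 and 11 in B-D. Obp46a leaned the other way, with 7, 1 and 12 counts in SG and 2, 5 and 1 in B-D, and Obp56e with 11, 9 and 0 in SG and 2, 5 and 2 in B-D, although 84.4% of the exon length of Obp56e lies under an antisense RNA gene. Obp84a and Obp93a likewise lie largely under a gene on the opposite strand (81.2% and 83.2%). These differences were not tested.

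Along the chromosomes the members fell into 24 stretches when neighbours less than 50 kb apart were joined, 9 of them with 2 or more members and holding 36 members in all. Chromosome arm 2R held 29 members, of which 7 could be tested, 3 were lower in SG and none was higher. Arm 3R held 12 members, of which 6 could be tested, 4 were higher in SG and 2 lower. The remaining members lay on X (6 members, 1 higher), 2L (2 members, 1 lower) and 3L (2 members, no call). Among all genes tested 34.5% were higher and 35.3% lower. The counts per arm are small, were not tested, and are read as no difference between arms. The stretch of 2R with the most members, the 6 genes Obp56a to Obp56f over 16.3 kb, summed to 4.75 ± 3.98 CPM in SG and 6.89 ± 2.62 CPM in B-D (SD, n = 3 each), which overlapped, and most of it was Obp56a. By contrast the 4 genes of the Obp99 stretch summed to 4100 ± 1598 CPM in SG and 234 ± 69.1 CPM in B-D. The 4 X-linked genes Obp19a to Obp19d summed to 0.261 ± 0.201 CPM in SG and 0.286 ± 0.0737 CPM in B-D, with no more than 13 counts of any of them in a library.

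**Figure D5:**
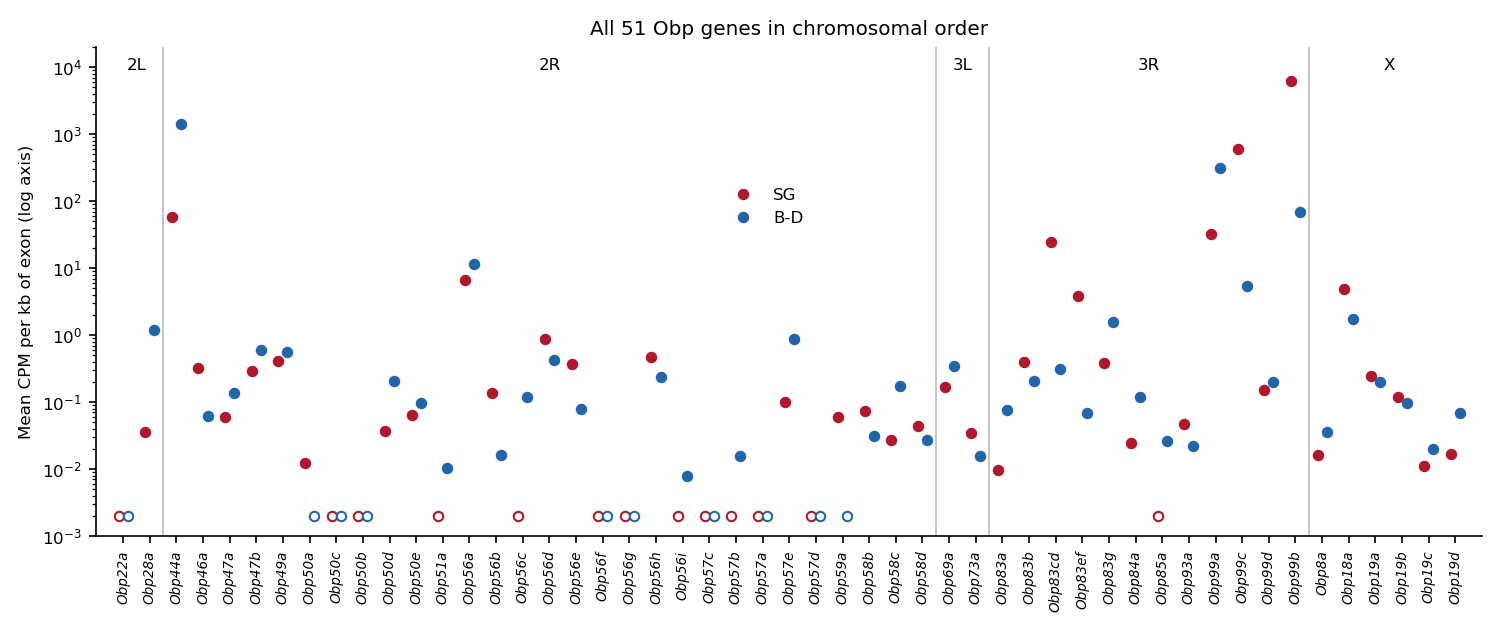
Mean CPM per kb of exon (log axis) of all 51 Obp genes in SG (red) and B-D (blue), in their order along the chromosome arms named at the top; open circles at the bottom mark genes with no count in that tissue. Most genes lie below 1 CPM per kb in both tissues, and Obp99b and Obp99c in SG and Obp44a and Obp99a in B-D stand far above the rest.

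The family member outside the symbol rule, lush, encodes Obp76a, which is needed in adult antennae to detect the pheromone cis-vaccenyl acetate. It had 2, 6 and 9 counts in SG and 25, 15 and 25 in B-D, levels that overlapped (log2 fold change -0.74 ± 0.50, SE, edgeR adjusted p = 0.216). Genes that work beside Obps, taken as lists of soluble carriers and receptors, were read in the same way. Of 4 chemosensory proteins, another family of small secreted carriers, 2 were lower in SG and none higher, and these were a10 at -3.90 ± 0.73 and CG30172 at -4.10 ± 0.59 (log2 fold change, SE, edgeR adjusted p = 0.00331 and 0.00109). For a10 the counts were 2, 0 and 6 in SG, near the floor, and 73, 109 and 84 in B-D. The median of that list was -2.13. Over all genes tested 34.5% were higher and 35.3% lower in SG, and so short a list was not tested against these shares.

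The Npc2 genes encode another family of small secreted carriers, which bind sterols and other lipids. Of 8 genes, 6 could be tested, 3 were higher in SG and 2 lower, and the list's median was 0.49 on the log2 scale. The shares over all genes tested were 34.5% higher and 35.3% lower, and the list was not tested against them. Npc2g had 185, 124 and 75.2 CPM in SG and 2.42, 0.361 and 1.05 CPM in B-D, which ranked the libraries of each tissue in the order of Obp99b and Obp99c (6.63 ± 0.82 on the log2 scale, SE, edgeR adjusted p = 5.94e-04). Npc2h was higher too, at 5.60 ± 0.57, and Npc2b lower, at -2.24 ± 0.39 (edgeR adjusted p = 2.81e-04 and 0.00232).

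Receptors with which Obps work in sensilla were expressed at low levels. Of 6 co-receptors and sensory neuron membrane proteins, Snmp1 was higher in SG (log2 fold change 1.72 ± 0.51), and Ir76b (-2.22 ± 0.43) and Snmp2 (-1.98 ± 0.29) were lower, with a list median of -0.42. Ir76b had 1, 1 and 3 counts in SG, at or below the floor, and 21, 15 and 18 in B-D. The co-receptor of odorant receptors, Orco, averaged 0.789 CPM in SG and 0.748 CPM in B-D and was not called (0.08, edgeR adjusted p = 0.868). Of 59 odorant receptors 13 could be tested, 2 were higher in SG, 7 lower and the median was -0.98. Of 66 ionotropic receptors 18 could be tested, with 2 higher, 7 lower and a median of -0.60, and of 60 gustatory receptors 20 could be tested, with 3 higher, 8 lower and a median of -0.60. The shares over all genes tested were 34.5% higher and 35.3% lower, and 65.0% of all genes passed the filter. The counts of these receptor lists were not tested against those shares. Among the genes with the smallest p were Gr21a, a subunit of the carbon dioxide receptor, with 10.2, 15.7 and 14.5 CPM in SG and 0.0849, 0.0904 and 0.188 CPM in B-D (6.76 ± 0.40 on the log2 scale, SE, edgeR adjusted p = 5.36e-05), and Ir93a, a receptor for temperature and humidity, with 0.216, 0.323 and 0.203 CPM in SG and 4.03, 5.41 and 4.04 CPM in B-D (-4.18 ± 0.28, edgeR adjusted p = 7.31e-05). Or67d, which detects cis-vaccenyl acetate together with lush, was lower in SG, at -3.41 ± 0.38 (edgeR adjusted p = 4.03e-04). It had 4, 1 and 2 counts in SG, near the floor, and 53, 53 and 63 in B-D.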

How the data were processed

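Poly-A RNA of 3 SG and 3 B-D samples, called biological replicates by the study, was sequenced from TruSeq stranded libraries. The submitters' processing notes name FastQC 0.11.5, STAR 2.6.1a and featureCounts, and the study gives Release 6.23 of the genome; neither the strand setting nor the handling of multiply mapped reads is stated there. Each gene's count was deposited by the authors as a whole number and used as it stands, with a gene length column (another unit, bases of exon) that served for values per kb. The authors' own comparison tables, with fold changes and p-values made with DESeq2, were not used. Groups and replicate numbers came from the sample titles. Both tissues came from the same larvae per the study, so same-numbered libraries were treated as paired in an alternative fit, although no source ties a number to a set of larvae; their deviations from the group means correlated at 0.330, 0.0769 and 0.222 across genes. Total counts per library are given in the report; intervals and floors cover counting error only.

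The members and lists were chosen with earlier results of these data known. Genes were filtered with filterByExpr, scaled by TMM and tested between tissues with edgeR 4.0.16 (R 4.3.3; glmQLFit and glmQLFTest, 6 libraries, tissue as the only term), with Benjamini-Hochberg adjustment over 11369 genes and calls at an adjusted p of 0.05 and a log2 fold change of 0.5. The SE beside a log2 fold change was not an output of the test. It was derived as the absolute log2 fold change divided by the square root of the F statistic. Genes named were all called Obp genes, the 5 most abundant per kb in each tissue and the one in each tissue with the widest SD of log2(CPM + 0.5); in other lists the members with the smallest p, at most 3 per list, and the 2 most abundant SG markers of the cell type lists set beside a result. Members outside this rule, and Orco, were named after their values were seen. Lists covered markers of salivary gland, neurons, glia, discs, fat body, hemocytes, muscle, trachea, gut, ring gland and epidermis, and chemosensory proteins, Npc2 carriers, co-receptors and odorant, ionotropic and gustatory receptors. Positions are those of the Ensembl annotation of the Release 6 genome; gene identifiers matched for all 51 members, whose lengths equalled the deposited ones within 10%. On simulated data with 11185 genes made for this comparison, edgeR recovered 60% of genes changed 2-fold and 100% of those changed 4-fold, with 8 false calls. The simulation gave every gene the same variation between libraries and changed only a small share of genes. It also set no difference in scale between the tissues. These rates therefore cannot be carried over to the real libraries, where many more genes were called and some members were far more uneven. Alternatives were DESeq2 1.42.0, library size or upper quartile scaling, no low-count filter, the replicate number as a block, stricter read minima and leaving out each library. No sequences of these genes were used here.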

Additional observations from a re-analysis of the deposited data

How the results depend on the processing

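All called members kept their direction under all 11 alternatives, and of 132 values of the 12 named genes none reversed, 122 kept their call and 10, of Obp18a and Obp47b, lost it. The number of Obp genes higher in SG was 4 to 6 and lower in SG 5 to 8 over all alternatives, and 4 to 6 and 5 to 7 when single libraries were left out. Between 16 and 43 members were tested in these fits. Of all genes, 1588 to 4030 were higher and 3709 to 7111 lower over the same alternatives, out of 11369 to 15537 tested. By library size alone the median of all genes shifted by -1.10 (log2), with 1588 of 11369 genes higher and 7111 lower. Obp18a was lost there and Obp49a and Obp69a became lower, so that 8 of 17 members were lower. Obp47b was called under library size alone, upper quartile scaling and without SG replicate 3. Without SG replicate 3, Obp56e was also called higher, and Obp49a lower, and without SG replicate 2 Obp50d was called lower. With DESeq2 5 members were higher and 5 lower. With the replicate block 6 members were higher, Obp56d being gained, and 5 lower, Obp47b being lost, Obp99b stood at 7.37, and no other call of a member changed; 2 of 3 SG libraries correlated best with the B-D library of their own number. With at least 3 counts in every library, 14 members were detected in SG and 21 in B-D, and with at least 10 counts summed, 17 in SG. The summed level was 517 CPM in SG without Obp99b and 247 CPM in B-D without Obp44a, and 2581 CPM in B-D by library size alone. Leaving out single libraries gave 35 to 37 members detected in SG and 40 to 41 in B-D, and sums of 3318 to 4894 CPM in SG and 1693 to 1824 CPM in B-D. The low-count filter left 34 members untested, among them 8 with no read in any library. Some of the others, such as Obp83b, were at or above the floor in all 6 libraries.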
